A study of Mus musculus with 57 samples.

Results

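The myogenic regulatory factors are the 4 genes Myod1, Myog, Myf5 and Myf6, taken from the mm10 RefSeq annotation as 4 of 26089 genes on chromosomes 1 to 19 and X. Peaks of H3K4me3, H3K27ac and H3K27me3 were examined within 1 kb of each transcription start site (TSS), in the gene body and in the 50 kb on either side. The data were deposited as chromatin immunoprecipitation (ChIP-seq) peak lists from brain cortex and gastrocnemius, a calf muscle, of PSAPP mice, a transgenic model of Alzheimer's disease, killed at 13 months of age. All animals of both groups carried the PSAPP background and were fed the same modified AIN-93 diet with a set daily intake, so neither a wild-type mouse nor another treatment was available for comparison. Each mark had 9 cortex and 10 gastrocnemius libraries, 57 in all. The labels do not give the sex of the animals, so females and males were pooled and not compared. By the animal codes in the deposited names, the tissues came from 10 mice, 9 of which gave both.

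The 4 factors are basic helix-loop-helix proteins that bind the E-box, CANNTG, as dimers with E proteins, and they commit cells to skeletal muscle and drive their differentiation. Myf5 and Myod1 act in myoblasts and satellite cells, Myog in the onset of fusion and terminal differentiation, and Myf6 (MRF4) is the member most associated with mature fibres. H3K4me3 marks active or poised promoters, H3K27ac marks active promoters and enhancers, and H3K27me3 is the mark placed by the Polycomb repressive complex.

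Reads in peaks ranged from 9.16 to 19 M (M, 1000000 reads) in the H3K4me3 libraries, from 3.94 to 27.3 M for H3K27ac and from 2.99 to 18.2 M for H3K27me3. The tissue labels were checked with marker lists, which were chosen with earlier results of these data known. Of 6 muscle fibre markers, 6 had an H3K4me3 peak at the TSS in all gastrocnemius libraries, whereas 5 had none in any cortex library. Of 6 neuron markers, 5 had this peak in all cortex libraries and 4 had none in gastrocnemius. The summed H3K4me3 level of the neuron markers was 7.75 to 15.0 RPM (peak reads scaled to 1000000 reads in autosomal peaks of the library) in gastrocnemius and 108 to 160 RPM in cortex. For H3K27ac, all 6 muscle fibre markers had a peak in all gastrocnemius libraries, but 3 also had it in all cortex libraries and only 1 in none. Their summed H3K27ac level was 19.9 to 28.3 RPM in cortex and 48.6 to 71.8 RPM in gastrocnemius. In a bulk tissue, fewer cells of a type and less of a mark per cell cannot be told apart.

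Myod1 lies on the plus strand at chr7:46376474-46379092, Myog on the plus strand at chr1:134290004-134292548, Myf5 on the minus strand at chr10:107482908-107486134 and Myf6 on the minus strand at chr10:107492848-107494723. All coordinates are mm10 (GRCm38.p6), and each gene has 3 exons. Myf6 starts 8.59 kb upstream of the Myf5 TSS, so the flanks of these genes are largely the same DNA and are not independent observations.

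RefSeq promoter sequences (GRCm38.p6) were at hand for 2 members, Myog and Myf5. They are shown, up to the base before the TSS, because H3K4me3 peaks within 1 kb of both start sites were called in gastrocnemius libraries only. The middle 300 bases of a Myod1 and a Myf6 distal segment are shown because H3K27ac was called there in all 10 gastrocnemius and no cortex library. Capitals mark E-boxes.
Myog promoter, chr1:134289754-134290003, plus strand: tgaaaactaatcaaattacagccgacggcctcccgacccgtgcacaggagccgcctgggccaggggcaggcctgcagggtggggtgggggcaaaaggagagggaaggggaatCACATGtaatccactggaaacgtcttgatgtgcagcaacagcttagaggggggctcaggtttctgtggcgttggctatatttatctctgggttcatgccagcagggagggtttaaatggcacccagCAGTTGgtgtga
Myf5 promoter, chr10:107486135-107486384, minus strand: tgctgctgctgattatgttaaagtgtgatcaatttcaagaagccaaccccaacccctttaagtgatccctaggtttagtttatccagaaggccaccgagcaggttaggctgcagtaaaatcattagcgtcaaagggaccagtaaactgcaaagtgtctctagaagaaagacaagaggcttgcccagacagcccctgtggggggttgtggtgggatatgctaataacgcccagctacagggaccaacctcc
Myod1 distal segment, chr7:46353451-46353750, plus strand: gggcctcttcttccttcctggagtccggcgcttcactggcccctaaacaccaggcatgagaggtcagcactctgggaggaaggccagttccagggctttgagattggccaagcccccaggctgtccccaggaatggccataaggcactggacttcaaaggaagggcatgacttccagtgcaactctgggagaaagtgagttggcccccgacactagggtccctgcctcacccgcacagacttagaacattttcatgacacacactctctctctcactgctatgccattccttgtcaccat
Myf6 distal segment, chr10:107540351-107540650, minus strand: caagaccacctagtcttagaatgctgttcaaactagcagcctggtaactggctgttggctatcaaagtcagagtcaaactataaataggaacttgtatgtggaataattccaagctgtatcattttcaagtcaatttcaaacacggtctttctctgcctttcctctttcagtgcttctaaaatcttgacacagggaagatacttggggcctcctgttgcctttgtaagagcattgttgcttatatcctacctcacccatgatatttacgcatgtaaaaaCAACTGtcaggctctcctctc

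The Myog promoter held 2 E-boxes, at -138 to -133 and -12 to -7 from the TSS. The E-box is its own reverse complement in form, so a match counts on both strands. It also held the 7 letters TCAGGTT, a MEF3 motif, at -84 to -78. Among 32851 RefSeq promoters cut to the same 250 bases, 66.2% held an E-box and 3.49% held TCAGGTT on either strand. The Myf5 promoter had no match to the E-box, to the MEF3 letters or to the TATA box letters in these bases. The Myf6 distal segment had 1 E-box, and it had 1 match to the MEF2 motif, which overlaps a TATAAA. In 300-base promoters, 72.3% held an E-box, 3.19% the MEF2 motif and 13.6% TATAAA. The Myod1 window had no match to any of these motifs.

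H3K4me3 at the TSS was higher in gastrocnemius than in cortex for all 4 members, in a background where 27.5% of 16728 tested genes were called higher in gastrocnemius (edgeR's quasi-likelihood test, adjusted p under 0.1). Window values are the reads of overlapping peaks shared in proportion to the overlap, so a library without a called peak has the value 0 although reads may be there. The ranges of the tissues did not overlap for any member, with gastrocnemius above without overlap in 6.58% of all tested genes. A gene was tested where at least 3 libraries of a tissue had a peak. Myod1 and Myf6 met this in both tissues, whereas Myog and Myf5 met it only through gastrocnemius, so their direction was set by the filter and their values are a description.

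For Myod1, the H3K4me3 level in cortex ranged from 0 to 2.37 RPM with a median of 1.34 (1.01 ± 0.830, SD, n = 9), and in gastrocnemius from 14.0 to 22.9 RPM with a median of 17.3 (17.4 ± 2.61, SD, n = 10). The lowest muscle library was thus well above the highest cortex library. The difference was 4.33 on the log2 scale (SE 0.47, edgeR adjusted p = 5.89e-08). For Myf6, the levels were 0 to 0.939 RPM in cortex (median 0.268) and 17.6 to 38.0 RPM in gastrocnemius (median 24.4). The log2 difference was 6.47 (SE 0.36, edgeR adjusted p = 1.12e-12), and gastrocnemius 7 was the highest library. The size of both differences depends on the value given to libraries without a peak. With such windows set to the lowest read density of a peak in that library, the log2 differences were 3.49 for Myod1 and 4.75 for Myf6.

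No cortex library had an H3K4me3 peak within 1 kb of the Myog or Myf5 TSS. All gastrocnemius libraries did, at 3.98 to 11.6 RPM for Myog (median 7.02, edgeR adjusted p = 2.94e-10) and at 6.43 to 10.5 RPM for Myf5 (median 8.11, edgeR adjusted p = 3.90e-11). A fold is not given where every library of a tissue lacked a peak.

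In gastrocnemius the order of the H3K4me3 levels was Myf6, Myod1, Myf5 and Myog. Myf6 was above Myod1 in 10 of 10 libraries, although their ranges overlapped. Myod1 was above Myf5 in 10 of 10 with no overlap of the ranges. Myf5 and Myog were not separated, with Myf5 above in 6 of 10 libraries. Among the 15712 genes with a peak in at least 3 gastrocnemius libraries, 40.3% had a lower mean H3K4me3 level in this window than Myf6, 26.8% a lower one than Myod1, 14.3% than Myf5 and 13.2% than Myog, so all members were in the lower part of the marked promoters.

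**Figure D1:**
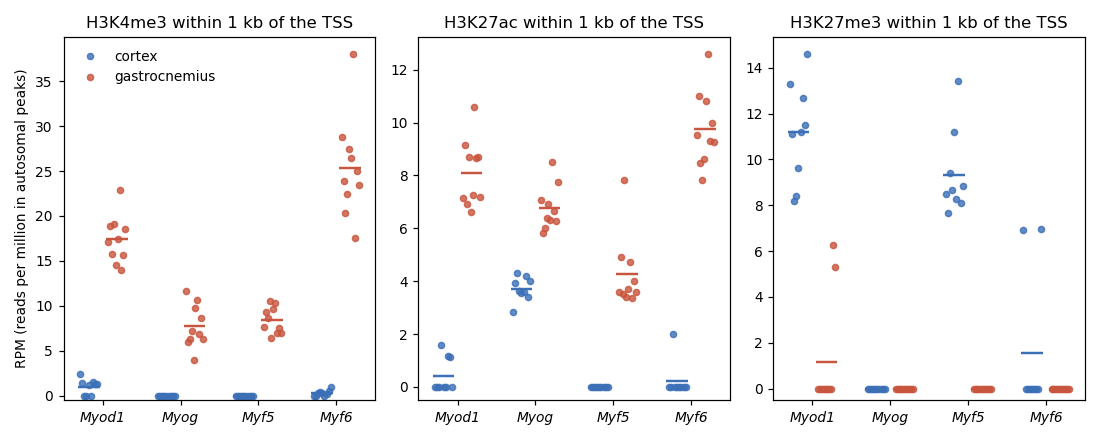
Levels of the 3 marks within 1 kb of the TSS of each member, in RPM on linear axes, with 1 point per library (9 cortex, 10 gastrocnemius) and a line at the mean. H3K4me3 and H3K27ac were higher in gastrocnemius at all 4 genes without overlap (6.58% and 4.43% of all tested genes), and H3K27me3 was higher in cortex at Myod1 and Myf5 without overlap (4.36%). Myog and Myf5 for H3K4me3, Myf5 and Myf6 for H3K27ac and Myod1 and Myf5 for H3K27me3 were tested only through the tissue where they were high.

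The cortical H3K4me3 peaks at Myod1 and Myf6 differed from the muscle peaks in width and place. At Myod1, 6 of 9 cortex libraries had a peak, 1.6 to 2.4 kb wide with 37 to 89 reads, and only 1 of them covered the TSS itself. The median cortical peak ran from 0.327 to 2.33 kb downstream of the TSS, inside the gene. The muscle peaks were 5.2 to 11.8 kb wide, held 621 to 1437 reads and started at a median of -5.67 kb. At Myf6, the 6 cortical peaks were 0.6 to 1 kb wide and none covered the TSS, against 6 to 10.6 kb in muscle, where all 10 did. The 6 cortex libraries with the Myod1 peak had 9.50 to 19 M reads in peaks and the 3 without had 10.1 to 10.5 M. The part of depth in these calls was not tested.

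The number of libraries with a call was compared by Fisher's exact test, adjusted over all genes tested. Myog and Myf5 passed for H3K4me3 (0 of 9 against 10 of 10, adjusted p = 0.00022 for each), where 3.49% of genes were called in this direction. Both entered the test only through gastrocnemius, which set the direction, so these counts are a description. Myod1 and Myf6, with 6 of 9 against 10 of 10, did not pass (adjusted p = 0.681). When a call needed peaks over at least 50% of the window, cortex calls fell to 1 of 9 for Myod1 and 0 of 9 for Myf6, and without the lowest-scoring 25% of peaks in each library to 0 and 1, with 10 of 10 in gastrocnemius. Under these settings both genes entered only through gastrocnemius, which set the direction.

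H3K27ac at the TSS was also higher in gastrocnemius at all 4 members, where 24.7% of 18354 genes were called in this direction by edgeR and gastrocnemius was above without overlap in 4.43%. Myog was the member with a peak in all libraries of both tissues. Its level was 2.85 to 4.31 RPM in cortex (median 3.62, 3.72 ± 0.454, SD, n = 9) and 5.81 to 8.52 RPM in gastrocnemius (median 6.51, 6.77 ± 0.835, SD, n = 10). The ranges did not overlap, and the log2 difference was 1.14 (SE 0.11, edgeR adjusted p = 1.45e-08).

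The other members had little or no H3K27ac in cortex. Myod1 ranged from 0 to 1.58 RPM in cortex and from 6.62 to 10.6 RPM in gastrocnemius (medians 0 and 7.95, log2 difference 4.38, SE 0.68, edgeR adjusted p = 2.01e-05). Myf6 had a value above 0 in 1 cortex library, cortex 3, at 2 RPM, and 7.82 to 12.6 RPM in gastrocnemius (median 9.41, log2 difference 5.72, SE 0.65, edgeR adjusted p = 2.63e-07). Myf5 had no cortical peak and 3.37 to 7.82 RPM in gastrocnemius (median 3.65, edgeR adjusted p = 2.16e-09). Myf5 and Myf6 passed the filter only through gastrocnemius. With uncalled windows at the lowest read density the log2 differences were 2.44 for Myod1 and 2.49 for Myf6.

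The highest Myf5 value, 7.82 RPM in gastrocnemius 4, came from a single peak of 21.6 kb that covered the Myf5 and Myf6 start sites together, so that library has the same level at both genes. In the other libraries Myf5 did not exceed 4.90 RPM. In gastrocnemius the order for H3K27ac was Myf6, Myod1, Myog and Myf5, and the ranges of all neighbours in this order overlapped. Among 16435 genes with a peak in at least 3 gastrocnemius libraries, 78.5% were lower than Myf6, 56.8% lower than Myod1, 38.0% lower than Myog and 17.9% lower than Myf5.

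By calls, Myod1 (3 of 9 cortex and 10 of 10 gastrocnemius libraries, adjusted p = 0.0252), Myf5 (0 and 10, adjusted p = 0.000179) and Myf6 (1 and 10, adjusted p = 0.00137) passed Fisher's exact test for H3K27ac, where 4.43% of genes were called higher in gastrocnemius. Myog could not, with calls in all 19 libraries. Myf5 and Myf6 entered the test only through gastrocnemius, which set their direction, so their counts are a description. The Myod1 call was lost without the 6 libraries per mark whose deposited names carry a run number (adjusted p = 0.151), which leaves fewer samples.

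H3K27me3 showed the reverse order of tissues. It was higher in cortex at Myod1 and Myf5, where 22.2% of 9422 genes were called higher in cortex by edgeR and cortex was above without overlap in 4.36%. Both passed the filter only through cortex, which set the direction, so their values are a description. At Myod1 the cortex libraries ranged from 8.19 to 14.6 RPM (median 11.2, 11.2 ± 2.18, SD, n = 9). Of the gastrocnemius libraries 8 had no peak and 2 had 6.25 and 5.29 RPM. The ranges did not overlap, with a log2 difference of -2.96 (SE 1.07, edgeR adjusted p = 0.0307). This size is uncertain, since the fitted log2 difference was -6.03 with the run number as a covariate, -7.70 with the replicate block and -1.18 with uncalled windows at the lowest read density. Without the libraries with a run number no gastrocnemius library had a peak (edgeR adjusted p = 5.52e-06). The 2 muscle libraries with a peak, gastrocnemius 9 and 10, both carry a run number and had 7.71 and 7.86 M reads in peaks, against 2.99 to 18.2 M in the 8 others. The part of the run and of depth was not tested.

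At Myf5, all 9 cortex libraries had H3K27me3, from 7.66 to 13.4 RPM (median 8.69, 9.35 ± 1.85, SD, n = 9), and no gastrocnemius library did (edgeR adjusted p = 2.98e-08). Myf6 had an H3K27me3 peak at the TSS in 2 cortex libraries, cortex 1 and 9, at 6.91 and 6.97 RPM, and in no muscle library, so it fell short of the 3 libraries needed for a test. When 1 library was enough it entered only through these cortex libraries, and its calls did not pass Fisher's exact test (adjusted p = 0.456), although edgeR gave an adjusted p of 0.027. Myog had none in any of the 19 libraries. Fisher's exact test of the calls passed for Myod1 (9 of 9 against 2 of 10, adjusted p = 0.00475) and Myf5 (9 of 9 against 0 of 10, adjusted p = 0.00019), where 15.6% of genes were called higher in cortex. Myod1 and Myf5 entered this test only through cortex, which set the direction, so their counts are a description.

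In cortex Myod1 and Myf5 had similar H3K27me3 levels, with Myod1 above in 5 of 9 libraries. Among the 7161 genes with a peak in at least 3 cortex libraries, 90.3% were lower than Myod1 and 80.8% lower than Myf5, so these 2 genes were among the more strongly marked start sites. In cortex, then, the members carried different combinations of marks. Libraries of the 3 marks were joined by their replicate number within a tissue. Myod1 had H3K27me3 at all 9 numbers, together with H3K4me3 in 6, with H3K27ac in 3 and with both in 2. Myf5 had H3K27me3 alone in all 9, and Myog had H3K27ac alone in all 9. Myf6 had no mark at 2 of 9 numbers, H3K4me3 with H3K27me3 at 1 and H3K4me3 with H3K27ac at 1. In gastrocnemius, every replicate number had H3K4me3 with H3K27ac at all 4 members, and 2 numbers had all 3 marks at Myod1.

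The wider loci were compared over the gene body and 50 kb on either side. Reads of H3K4me3 in the locus were higher in gastrocnemius for Myog, Myf5 and Myf6 (41.7% of 21836 genes called in this direction by edgeR). For Myog the log2 difference of 1.5 turned to -0.83 within 100 kb (edgeR adjusted p = 1.75e-09). Those of Myod1 overlapped, at 129 to 160 RPM in cortex and 117 to 249 RPM in gastrocnemius (log2 difference 0.21, SE 0.12, edgeR adjusted p = 0.118). The adjusted p was 0.0715 with the replicate number as a block, 0.0703 without the libraries with a run number and 0.0963 without the lowest-scoring 25% of peaks, and within 20 kb the log2 difference was 0.94 (edgeR adjusted p = 1.32e-06). The wide Myod1 locus includes the start of Kcnc1, a neuronal potassium channel gene 19.99 kb downstream, which had H3K4me3 in all libraries of both tissues.

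The Myod1 locus had 3 H3K27ac sites that differed between the tissues, of which 2 lay upstream and 1 over the gene. A site is the union of overlapping peaks over all libraries of a mark, tested where at least 3 libraries of a tissue had a peak in it. Where the other tissue had fewer than 3, the filter set the direction, and the call counts are a description. The site at chr7:46332401-46345000, at -44.1 to -31.5 kb from the TSS, was called in 10 of 10 gastrocnemius libraries at 13.8 to 33.3 RPM and in 1 of 9 cortex libraries (Fisher's exact test, adjusted p = 0.000591). The site at -30.1 to -13.1 kb was called in 10 and 3 libraries, at 4.87 to 33.4 RPM in muscle and up to 6.30 RPM in cortex (exact test, adjusted p = 0.00968). The site over the gene itself, from -12.1 to 6.73 kb, was called in 10 and 4 libraries (exact test, adjusted p = 0.0277).

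In these sites the segments called in all 10 muscle and no cortex libraries ran from -39.7 to -37.9, -37.3 to -34.7, -23.7 to -22.1 and -7.07 to -0.07 kb. Enhancers upstream of Myod1 are known from transgenic mice, and the overlap of these segments with them was not examined. The segment nearest the gene also holds the start of Gm45923, which had H3K4me3 and H3K27ac in 10 gastrocnemius and 0 cortex libraries and H3K27me3 in 8 cortex and 0 gastrocnemius libraries.

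H3K27me3 covered a large part of the Myod1 locus in cortex. Covered length was 56.0 kb ± 12.3 (SD, n = 9) in cortex and 7.36 kb ± 9.21 (SD, n = 10) in gastrocnemius, a difference of -48.6 kb (two-sided exact permutation test, p = 1.08e-05, the smallest p that 92378 relabellings can give). The read level in the locus was 167 to 318 RPM in cortex and 0 to 76.9 RPM in gastrocnemius, with 34.6% of 22264 genes called higher in cortex and an edgeR adjusted p of 0.00477. H3K27ac covered 38.8 kb ± 2.96 (SD, n = 9) in cortex and 64.7 kb ± 9.20 (SD, n = 10) in gastrocnemius (exact permutation p = 2.17e-05), and its reads were higher in muscle (log2 difference 0.93, SE 0.11, edgeR adjusted p = 2.30e-07, with 40.8% of 22468 genes called in this direction). H3K4me3 covered 13.0 kb ± 3.33 (SD, n = 9) in cortex and 25.04 kb ± 8.97 (SD, n = 10) in gastrocnemius (exact permutation p = 0.000325). In all, 12 such comparisons of covered length were made, and their p-values are unadjusted.

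**Figure D2:**
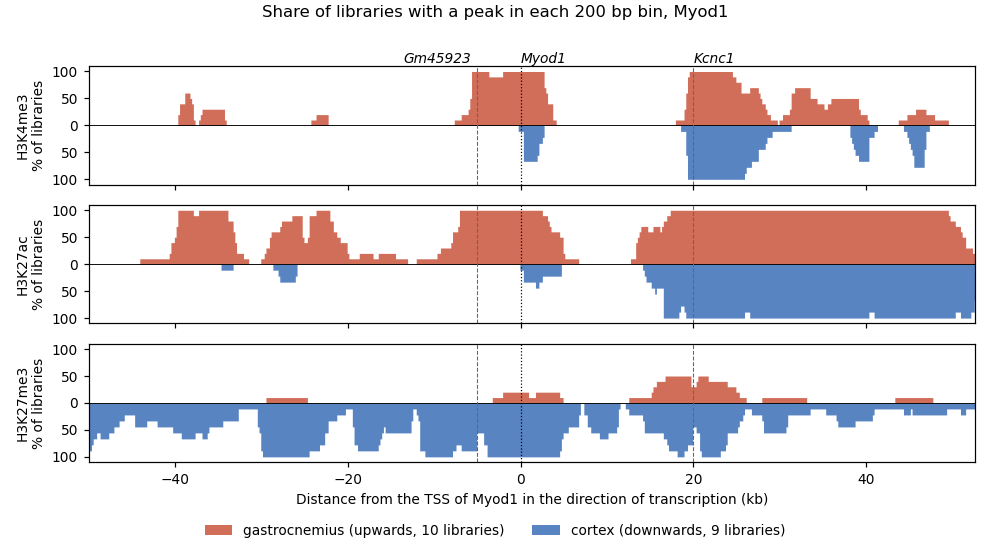
Share of libraries with a peak in each 200 bp bin around the Myod1 TSS, drawn upwards for gastrocnemius (10 libraries) and downwards for cortex (9 libraries), with the distance from the TSS in kb on the x axis. H3K27ac segments upstream of Myod1 were called in all gastrocnemius and no cortex libraries, H3K27me3 in cortex spread over much of the locus, and both tissues carried H3K4me3 and H3K27ac at Kcnc1.

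The H3K27ac site at chr10:107483401-107509200, a union over libraries, covered the Myf5 and Myf6 start sites. A single peak covered both in gastrocnemius 4, and the 9 other gastrocnemius libraries had separate peaks at the 2 genes. The site was called in 10 gastrocnemius libraries at 70.02 to 119.7 RPM and in 1 cortex library at 3.64 RPM (exact test, adjusted p = 0.000591). The stretch called in every muscle and no cortex library nearest the Myf6 TSS ran from -10.3 to 0.122 kb. Upstream sites lay at -49.5 to -41.1 kb from the Myf6 TSS (10 and 0 libraries, exact test, adjusted p = 8.85e-05) and at -26.3 to -19.5 kb (8 and 0 libraries, exact test, adjusted p = 0.00278), inside Ptprq. Covered length of H3K27ac in the Myf6 locus was 0.178 kb ± 0.533 (SD, n = 9) in cortex and 27.9 kb ± 5.37 (SD, n = 10) in gastrocnemius (exact permutation p = 1.08e-05).

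H3K4me3 in the Myf6 locus covered 0.533 kb ± 0.424 (SD, n = 9) in cortex and 14.0 kb ± 2.33 (SD, n = 10) in gastrocnemius (exact permutation p = 1.08e-05). Cortical H3K27me3 was a single site, chr10:107484001-107491800, of 7.8 kb, called in 9 cortex and 0 gastrocnemius libraries (exact test, adjusted p = 0.000236) at 21.9 to 33.1 RPM. It ran from -5.67 to 2.13 kb of the Myf5 TSS and ended 2.92 kb downstream of the Myf6 TSS. The peaks over the Myf6 start in cortex 1 and 9 were separate from it, 1.8 and 3 kb wide. All H3K27me3 in the locus, those separate peaks included, covered 6.53 kb ± 1.28 (SD, n = 9) in cortex and 0 in all gastrocnemius libraries (exact permutation p = 1.08e-05).

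**Figure D3:**
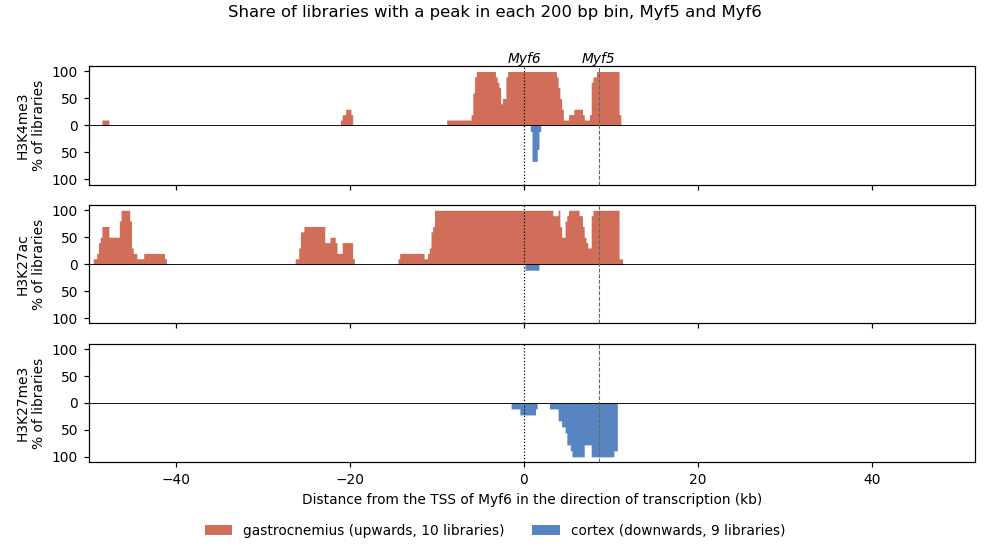
Share of libraries with a peak in each 200 bp bin around Myf5 and Myf6, upwards for gastrocnemius (10 libraries) and downwards for cortex (9 libraries), with the distance from the Myf6 TSS in kb on the x axis. In gastrocnemius H3K27ac lay over each gene, in separate peaks in 9 of 10 libraries, whereas in cortex H3K27me3 lay over Myf5 in all libraries, with separate peaks over the Myf6 TSS in 2.

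Myog stood apart from the other loci in its flanks. H3K4me3 at chr1:134289201-134294800, which covers the TSS and that of Myoparr, a non-coding RNA that starts 0.243 kb upstream of Myog, was called in 10 gastrocnemius and 0 cortex libraries (exact test, adjusted p = 0.000112) at 11.2 to 26.1 RPM. H3K27ac was called in all 19 libraries in 9 separate stretches of the locus, of which a 4 kb stretch lay from -0.203 to 3.796 kb of the TSS. The site that holds this stretch also runs into Ppfia4.

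Its locus reads of H3K27ac were lower in muscle, at 148 to 195 RPM in cortex and 116 to 191 RPM in gastrocnemius (log2 difference -0.20, SE 0.09, edgeR adjusted p = 0.0354, with 44.9% of genes called higher in cortex). The call was lost without the libraries with a run number (edgeR adjusted p = 0.115). The direction turned within 20 kb, where the log2 difference was 0.74 (edgeR adjusted p = 1.31e-08). The covered length, 59.4 kb ± 6.00 (SD, n = 9) and 55.5 kb ± 8.93 (SD, n = 10), did not pass (exact permutation p = 0.28). An H3K27ac site at -26.4 to -22.8 kb was called in 8 cortex and 0 gastrocnemius libraries (exact test, adjusted p = 0.000591).

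H3K27me3 was absent from the Myog gene body in all libraries but present in the flanks in muscle. All 10 gastrocnemius libraries and 1 cortex library had some, at 1.29 to 64.5 RPM (median 24.8) and 9.30 RPM, so the ranges overlapped. The locus was called higher in gastrocnemius (log2 difference 4.66, SE 1.44, edgeR adjusted p = 0.00998), where 27.4% of genes were. It passed the filter only through gastrocnemius. The fitted size rests on the peak in cortex 8, and it was 7.24 with the run number as a covariate, 9.22 with the replicate block and 9.35 with the animal block. Without the libraries with a run number, cortex 8 among them, no cortex library had a peak (edgeR adjusted p = 3.91e-05). The site at -60.6 to -43.6 kb, in Adora1, was called in 10 gastrocnemius and 0 cortex libraries (exact test, adjusted p = 0.000236) and the site at 30.8 to 40.8 kb, in Ppfia4, in 6 and 0 (exact test, adjusted p = 0.0386). Neither lies within 20 kb of Myog, and in that window the difference did not pass (edgeR adjusted p = 0.497).

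**Figure D4:**
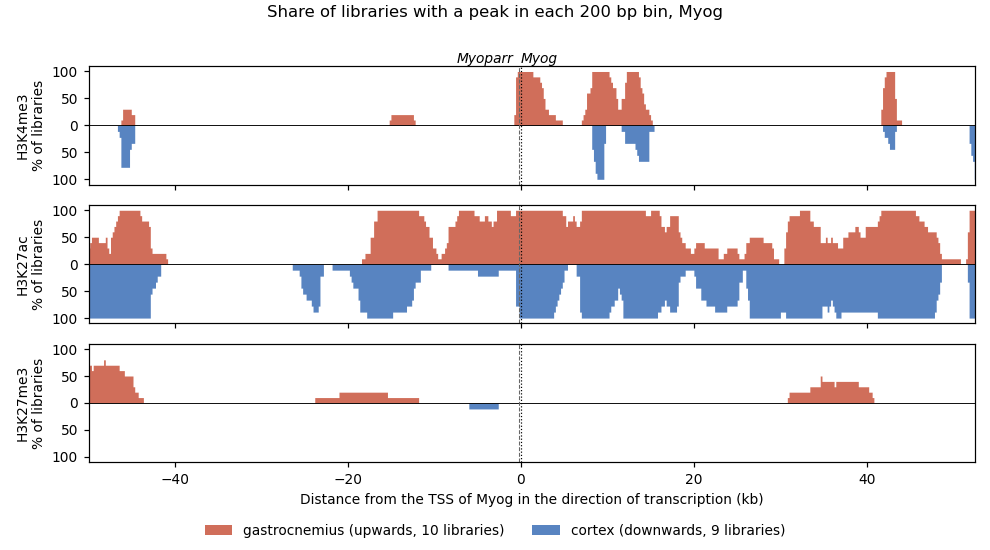
Share of libraries with a peak in each 200 bp bin around the Myog TSS, upwards for gastrocnemius (10 libraries) and downwards for cortex (9 libraries), with the distance from the TSS in kb on the x axis. H3K27ac at Myog was called in both tissues, H3K4me3 at the TSS in gastrocnemius only, and H3K27me3 lay in the flanks.

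Over all 4 loci, 12 H3K4me3 sites were tested by Fisher's exact test, of which 3 were called more often in gastrocnemius (20.4% of 29106 sites genome-wide) and 1 in cortex (12.4%). Of 11 H3K27ac sites, 6 were called in gastrocnemius (15.6% of 49768) and 1 in cortex (31.9%). Of 7 H3K27me3 sites, 2 were called in gastrocnemius (10.6% of 36602) and 3 in cortex (28.3%). The sites over Myod1 and over Myf5 and Myf6 in H3K4me3 were not called, with a peak in 6 of 9 cortex libraries. Levels at the Myod1 site were 52.9 to 103 RPM in gastrocnemius and 0 to 4.83 RPM in cortex. At the Myf5 and Myf6 site they were 96.4 to 176 RPM in gastrocnemius and 0 to 3.97 RPM in cortex. The share of all sites with such separate ranges was not counted.

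The genes whose TSS levels most resembled those of each member over the 57 libraries (log2 of RPM plus 1, centred per mark) are a description, since libraries of a tissue share its pattern. For Myf6 they were Myhas (r = 0.959), Myh4 (0.958), Myh2 (0.936), Ppp1r3a (0.936) and Asb5 (0.936). Myh4 and Myh2 encode fast myosin heavy chains and Myhas is a non-coding RNA of that cluster. For Myog they were Tmod4 (r = 0.983), Rnase13 (0.981), Asb16 (0.979), Hpn (0.979) and Gm11716 (0.976). For Myf5, Fgf6, a growth factor of muscle, came first (r = 0.989), followed by Gm15050, LOC115490409, Map3k7cl and Lrrc52. For Myod1, Tmem233 (r = 0.945), Hoxa9, Agbl1, Mylk2 and Mir1a-1 (0.930) were closest. Between members, r was highest for Myod1 and Myf5 (0.925) and lowest for Myod1 and Myog (0.672).

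Other genes of the network were counted from lists of genes, with the TSS reads and edgeR. On the RPM scale, the median difference between tissues over all tested genes was -7.14 RPM for H3K4me3, -1.74 for H3K27ac and -0.288 for H3K27me3 (gastrocnemius minus cortex). Of all tested genes, 32.2% were called higher in cortex for H3K4me3 and 31.7% for H3K27ac, and 25.4% were called higher in gastrocnemius for H3K27me3, beside the shares of 27.5%, 24.7% and 22.2% in the opposite directions given above. List members that passed the filter through 1 tissue alone had their direction set by it. All 12 upstream regulators were higher in gastrocnemius for H3K4me3 (median difference 10.9 RPM) and 10 of 11 for H3K27ac (4.41 RPM). Examples were Pax7, the satellite cell factor (0 of 9 cortex and 10 of 10 gastrocnemius libraries with H3K4me3), Meox1 and Lbx1. For H3K27me3, 11 of the 12 were higher in cortex. Pax7 had H3K27me3 in all libraries of both tissues, at 15.3 RPM ± 3.25 (SD, n = 9) in cortex and 10.9 RPM ± 2.58 (SD, n = 10) in gastrocnemius.

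Co-regulators, which act with the members at muscle genes, were higher in gastrocnemius in 7 of 9 genes for H3K4me3 (2.25 RPM) and in 7 of 9 for H3K27ac (3.93 RPM), with 1, Mef2a, higher in cortex for H3K27ac. For H3K27me3, Tead4 (9 cortex and 0 gastrocnemius libraries), Vgll2 (9 and 1) and Smyd1 (9 and 1) passed the filter only through cortex, and the 6 others were not tested. Of the target genes, 17 of 19 were higher in gastrocnemius for H3K4me3 (7.92 RPM), led by Tnnc2, Tnni2 and Ckm of the contractile apparatus and its energy supply, and Mylpf was higher in cortex. For H3K27ac 17 of 23 were higher in gastrocnemius (1.26 RPM), with Mybph higher in cortex, and for H3K27me3 12 of 17 were higher in cortex (-4.85 RPM), with Mybph and Chrna1 higher in gastrocnemius, each without a peak in any cortex library.

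E proteins and inhibitors of helix-loop-helix dimers were split, with 6 of 13 higher in gastrocnemius and 5 in cortex for H3K4me3 (-5.55 RPM), 7 and 4 of 13 for H3K27ac (0.000124 RPM) and 5 and 3 of 9 for H3K27me3 (2.93 RPM). Neurogenic helix-loop-helix genes, the counterparts of the members in neurons and glia, went the other way, with 8 of 12 higher in cortex for H3K4me3 (-13.2 RPM) and 10 of 11 for H3K27ac (-6.98 RPM). Atoh1 and Neurog2 were higher in gastrocnemius for H3K4me3 (log2 differences 0.60 and 0.40, edgeR adjusted p = 0.0031 and 0.055). Neurod1 and Neurod6 had H3K4me3 in 9 cortex and 0 gastrocnemius libraries. For H3K27me3, 9 of the 14 did not pass, 3 were higher in cortex and 2 in gastrocnemius.

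Among cell type markers for H3K4me3, 6 of 6 muscle fibre markers were higher in gastrocnemius, 6 of 6 neuron markers and 5 of 5 glia markers in cortex, and 5 markers of other cells of muscle, Pax7 among them, were higher in gastrocnemius. For H3K27ac the counts in the same directions were 6 of 6, 6 of 6 and 3 of 5, with 5 of 6 markers of other muscle cells higher in gastrocnemius. For H3K27me3, 4 of 5 muscle fibre markers were higher in cortex, while neuron and glia markers each had 1 gene called in each direction, and 2 of 4 markers of other muscle cells were higher in cortex. The part of cell types other than fibres in the values of the members was not tested.

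**Figure D5:**
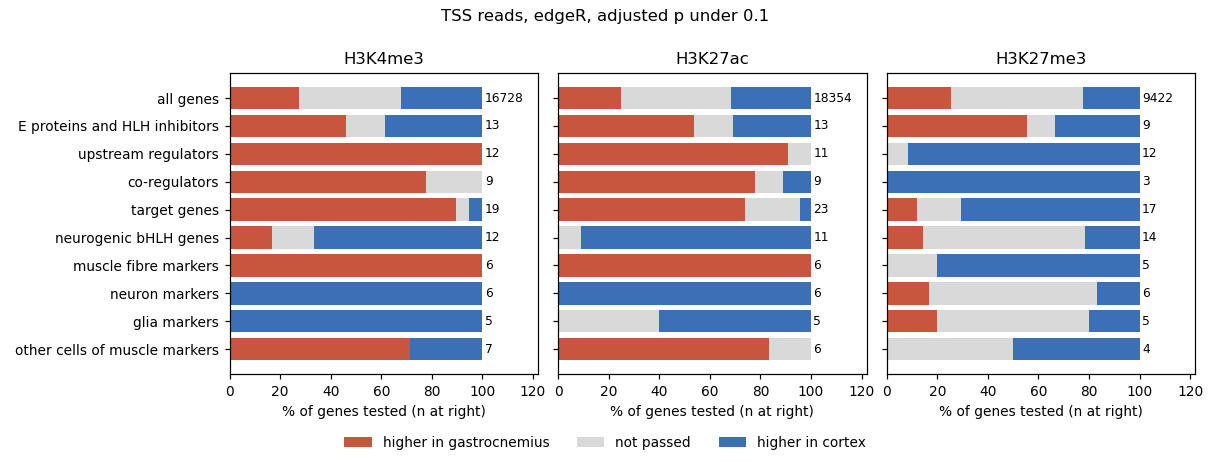
Share of tested genes in each list that were called higher in gastrocnemius, higher in cortex or not passed for TSS reads of each mark (edgeR, adjusted p under 0.1), with the number tested at the right of each bar. Upstream regulators and target genes were mostly higher in gastrocnemius for H3K4me3 and H3K27ac and mostly higher in cortex for H3K27me3.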

How the data were processed

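H3K4me3, H3K27ac and H3K27me3 were measured by ChIP-seq in 57 libraries. Alignment by the authors to mm10 used BWA and filtering used SAMtools, as the submitters' processing notes also name, after which epic2 called peaks in every library separately. The deposited values are a raw count of sequenced fragments per peak (called reads here) and the epic2 score, which served only to rank the peaks of a library. Since files list only called peaks, a value of 0 means that no peak was called.

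Peaks were joined to 26089 curated RefSeq genes (GRCm38.p6, the same build as mm10). Reads of a peak were shared over a window by overlap, rounded, and tested with edgeR 4.0.16 (quasi-likelihood, TMM, Benjamini-Hochberg over all genes tested, adjusted p under 0.1, the threshold of the study) on genes with a peak in at least 3 libraries of a tissue. Fisher's exact test (two-sided) served for calls and a two-sided exact permutation test for covered lengths. DESeq2 1.42.0 and limma 3.58.1 were alternatives. Scripts were tested on simulated data. For edgeR these were drawn from genes with a peak in every library, so windows without a peak were not covered. The members and all lists were chosen with earlier results of these data known. Named genes were the 4 members, at most 3 genes per list and direction with the largest called difference, the 5 most alike genes per member over 100 kb away, and genes starting within a locus. Genes that overlap a site (Ppfia4, Adora1, Ptprq) and Pax7 for H3K27me3 are named as well. Replicate numbers 1 to 4 mark the same animal in both tissues by the deposited names, the others do not, so the number was a block only in an alternative. Libraries of 1 tissue and mark all carry different animal codes. Counting precision is limited by the reads in peaks, and the reads outside peaks are not known. The result of 1 marker gene is not reported here.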

Additional observations from a re-analysis of the deposited data

Results flagged for a closer look

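Of 51 sets of values of the members (levels at the TSS and in the locus, and covered length, in 1 tissue), 7 had a library that stood apart from the rest of its group, where chance flags about 1 in 20 groups of continuous values. That rate does not hold for 5 of the 7, in which all other libraries were at 0, and these 5 values come from 2 libraries. The covered length of H3K4me3 in the Myf6 locus was 19.8 kb in gastrocnemius 6, with the next library at 15.2 kb. The H3K27ac level at the Myf5 TSS was 7.82 RPM in gastrocnemius 4, with the next at 4.90 RPM. Cortex 3 was the only cortex library with H3K27ac near Myf6, with 2 RPM at the TSS, 3.64 RPM in the locus and a covered length of 1.6 kb. Cortex 8 was the only cortex library with H3K27me3 in the Myog locus, at 9.30 RPM and 3.4 kb.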

How the results depend on the processing

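Members kept their direction for TSS reads under every alternative in which they were tested. Testing only genes called in every library leaves 0 members for H3K4me3 and H3K27me3 and 1 for H3K27ac, with 6512 genes called for H3K27ac and 1003 for H3K27me3, since fewer genes are tested. Members called by Fisher's exact test for H3K4me3 rose from 2 to 4 when peaks had to cover at least 50% of the window, without the 25% of peaks with the lowest scores, and with equally many top-scoring peaks, where the added 2, Myod1 and Myf6, had at most 1 cortex call and so were tested only through gastrocnemius. Sites near members called for H3K4me3 rose from 4 to 7 when peaks had to cover at least 50% of a site, and for H3K27me3 fell from 5 to 3 with equally many top-scoring peaks. Over the genome, H3K4me3 sites called were 4752 without the lowest-scoring peaks and 5645 with equally many peaks, against 9537, and H3K27me3 sites called were 8828 without libraries with a run number, against 14214. Within 20 kb the Myog locus reversed for H3K27ac reads (log2 difference 0.74) and covered length (8.07 kb higher in gastrocnemius, exact permutation p = 0.000314), and its H3K27me3 covered length did not pass (0.902 kb, exact permutation p = 0.334). Within 100 kb its H3K4me3 reads reversed (log2 difference -0.83). Causes were not tested.

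Deviations of same-numbered libraries correlated at r of -0.105 to 0.0555 for H3K4me3, -0.128 to 0.0614 for H3K27ac and -0.0899 to 0.128 for H3K27me3, and 4 of 9 numbers mark the same animal. With the replicate block, TSS reads called 4, 4 and 2 members for H3K4me3, H3K27ac and H3K27me3, as without it, and the Myod1 H3K4me3 locus was the only member result whose call changed (log2 difference 0.22). Sizes moved by over 1.5 times for the H3K27me3 values of Myod1 at the TSS and Myog in the locus, and also for H3K27ac TSS reads of Myod1 (log2 difference 5.71, against 4.38) and Myf6 (7.16, against 5.72), the H3K27ac loci of Myf5 (9.45, against 7.93) and Myf6 (9.43, against 8.05) and the H3K27me3 locus of Myod1 (-5.26, against -3.46). The animal block changed no call of a member. For H3K4me3, calls higher in gastrocnemius were 46.0% of all calls, against 20.7% with limma on log2(RPM + 1), which moved the median of all genes by -0.30. For H3K27ac they were 43.8% against 21.2% (-0.24), and for H3K27me3 53.4% against 42.9% with DESeq2 (-0.18). Depth limits what a missing peak can show, with 2.99 to 27.3 M reads in the peaks of a library.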
